A study of Macaca mulatta with 28 samples.

Results

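The genes described here are 9 genes of cholinergic neurons of the basal forebrain: CHAT, SLC18A3, SLC5A7, LHX8, NGFR, ISL1, ECEL1, SLC17A8 and PRIMA1. They were named as a list from earlier results on these libraries, and all 9 were found among the 15521 genes of the deposited gene table. All 9 also passed the filter on low values, 10 or more normalized reads in 5 or more of the libraries, which kept 13022 genes. Total RNA was sequenced from dissected tissue that included the central amygdala (CeA) in 28 male rhesus macaques, 1 library per animal. All animals drank ethanol, and none of the 28 was an ethanol-free control. Each was induced over about 90 days on 4% (w/v) ethanol and then had open access to it, 22 hours daily, over more than 12 months.

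By intake, the labels place 10 animals among the low drinkers (LD), 5 among the binge drinkers (BD), 7 among the heavy drinkers (HD) and 6 among the very heavy drinkers (VHD). The BD criteria were an intake of 2 g/kg or more on 55% or more of the days and a blood ethanol of 80 mg/dl reached yearly. The HD criterion was 3 g/kg or more on 20% or more of the days. For VHD the mean intake exceeded 3 g/kg, with over 4 g/kg on 10% or more of the days. The LD animals met none of these criteria. The animals belonged to cohort 4 (8 animals, 8.24 years old at induction and 9.98 at the end), cohort 5 (7 animals, 5.63 and 7.15 years), cohort 7a (8 animals, 4.18 and 5.7 years) and cohort 7b (5 animals, 5.69 and 7.18 years). Cohort 5 held 4 VHD and 3 HD animals and no others, and VHD and LD animals met only in cohort 7a, as 2 and 3 animals. Libraries are named below by category and number, such as VHD3, where the number carries no order.

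Cholinergic neurons of the basal forebrain lie just above and medial to the amygdala, in the nucleus basalis and the neighbouring substantia innominata, and send dense fibres to the basolateral amygdala and the cortex. They make acetylcholine with choline acetyltransferase, load it into vesicles with a dedicated transporter and take the choline back up after release. Unlike the cholinergic interneurons of the adult striatum, they keep high levels of NGFR, a neurotrophin receptor. Messenger RNA sits mainly in the cell body, so fibres alone bring little of it into a block.

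Values are normalized reads, that is, reads over a gene's exons scaled by 1 upper-quartile factor per library. The libraries held 1910514 to 25928489 reads (median 16444833), so that 3 reads correspond to between 1.82 and 24.1 normalized reads. The shallowest were BD1 (1910514 reads), LD1 (6474295) and HD1 (7412823), all of cohort 4. PENK, PRKCD and SST, peptide and kinase genes of CeA neurons that other nuclei also express, were present in every library, at no less than 1161, 174 and 928 normalized reads. The defining genes of other tissue that a block could hold were present too, and their levels are given beside the results they move with. In bulk tissue, fewer cells of a type and less RNA per cell cannot be told apart.

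CHAT, the enzyme that makes acetylcholine, ranged from 0 to 1687 normalized reads over the 28 libraries, around a median of 77.2. Its highest values were 1687 in VHD3, 1566 in VHD4, 1450 in VHD5, 826 in LD7 and 606 in BD4. These 5 libraries held 73.7% of all normalized CHAT reads, where the median gene of the 13022 tested had 22.8% in its own top 5 libraries. At the other end, CHAT had 0 reads in BD1 and HD6, 1 read each in HD5 and VHD6, 2 in LD2 and 3 in BD2. A count of 0 allows up to 24.1 normalized reads in BD1 but only 2.07 in HD6. The high libraries come from 3 categories and 2 cohorts, and the low ones from all 4 categories.

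**Figure D1:**
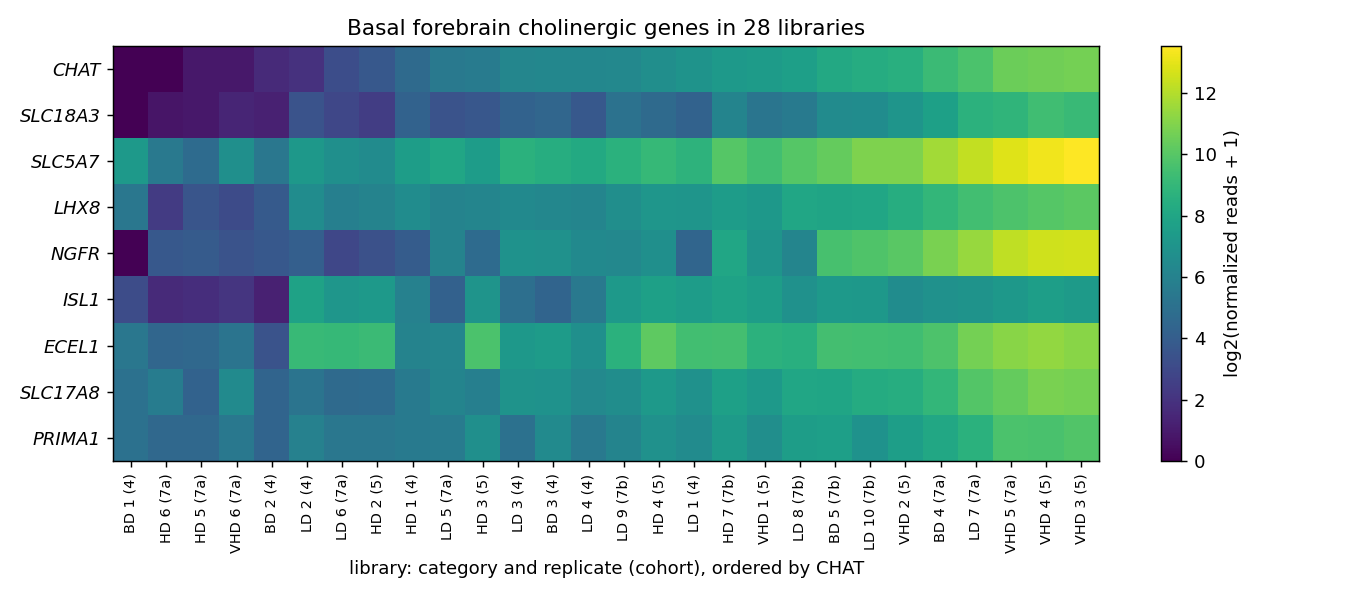
Each column is 1 of the 28 libraries, labelled by category, number and cohort and ordered by CHAT from left to right. Rows are the 9 genes, and colour gives log2(normalized reads + 1). In 7 rows the 5 columns at the right are the brightest, while the rows of ISL1 and ECEL1 are bright over most libraries and dark in BD1, HD6, HD5, VHD6 and BD2.

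The 2 transporters of the same pathway had the same 5 libraries on top. SLC18A3, which loads acetylcholine into vesicles, ranged from 0 in BD1 to 665 in VHD4 (median 19.7). SLC5A7, which takes choline back up, ranged from 25.5 in HD5 to 11907 in VHD3 (median 405). SLC5A7 had the highest level per length of the 9 genes, with a mean of 340 normalized reads per kilobase of listed exon, against 130 for CHAT and 44.3 for SLC18A3. Relative to CHAT in the same library, SLC5A7 was the steadier of the transporters. In the 22 libraries with more than 3 reads of CHAT and of the gene compared, its value divided by that of CHAT lay between 3.47 and 13.1 (median 5.32).

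CHAT and SLC18A3 share a locus. In the deposited exon list, whose genome build is not given in the sources used here, CHAT spans positions 43671929 to 43724833 of chromosome 10 in 16 exons. SLC18A3 is a single exon at 43669122 to 43671540, and 388 bases separate it from the first listed CHAT exon. The first and second CHAT exons held 0.18% and 0.924% of the gene's value, and the last exon held 14.7%. The CHAT value therefore comes almost entirely from exons beyond the end of the locus that borders SLC18A3. The ratio of SLC18A3 to CHAT lay between 0.145 in LD1 and 0.778 in LD6 (median 0.322), and LD1 and LD6 had only 8 and 7 reads of SLC18A3. Over the 28 libraries CHAT and SLC18A3 had a Pearson r of 0.960 and a Spearman rho of 0.976 on log2(value + 1).

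NGFR, the receptor that marks these neurons, ranged from 0 in BD1 to 6237 in VHD3 around a median of 82.0. On log2(value + 1) its range was the widest of the members. The 5 libraries with most CHAT held 84.8% of its normalized reads, at 6237 in VHD3, 5952 in VHD4, 4797 in VHD5, 2816 in LD7 and 1828 in BD4. Its ratio to CHAT was not constant. The ratio was 3.80 in VHD4, 3.70 in VHD3, 3.41 in LD7, 3.31 in VHD5 and 3.02 in BD4, but 0.164 in LD1, 0.354 in LD8, 0.525 in HD3 and 0.583 in HD1. LD1 and LD8 thus held 123 and 201.2 normalized reads of CHAT with only 20.2 and 71.1 of NGFR. LD10 and BD5, which like LD8 belong to cohort 7b, held 333 and 285 of CHAT with 886 and 771 of NGFR. NGFR lies on chromosome 17 at 43590777 to 43611429 in 6 exons, and 1 exon of 2317 bases carried 60.9% of its value.

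LHX8, a LIM homeodomain factor needed to specify forebrain cholinergic neurons, ranged from 4.13 in HD6 to 1121 in VHD3 (median 99.8). Its floor was higher than that of CHAT relative to its own peak. LD2, LD6 and HD2 held 93.7, 55.9 and 65.3 normalized reads of LHX8 beside 2.88, 8.11 and 12.4 of CHAT. SLC17A8, a vesicular glutamate transporter that some cholinergic neurons also carry, ranged from 18.1 in HD5 to 1788 in VHD4 (median 116). Its ratio to CHAT lay between 0.829 and 3.00, a range as narrow as that of SLC5A7. PRIMA1, the membrane anchor of acetylcholinesterase, ranged from 19.5 in BD2 to 946 in VHD3 (median 89.4) and had the smallest spread of the 9 on log2(value + 1). The same 5 libraries were on top for LHX8, SLC17A8 and PRIMA1, with 62.0%, 69.8% and 63.4% of the normalized reads.

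ISL1 departed from the other members, and ECEL1 followed them in part. ISL1, a LIM homeodomain factor of cholinergic and of developing striatal neurons, ranged from 1.35 in BD2 to 225 in LD2 (median 126). Its 5 highest libraries were LD2 (225), HD7 (223), HD4 (205), VHD4 (192) and VHD1 (186), and they held only 33.8% of its normalized reads. VHD3, with the most CHAT, had 166 of ISL1. ECEL1, a neuronal endopeptidase of the endothelin-converting enzyme family, ranged from 10.1 in BD2 to 2567 in VHD4 (median 549). Its top 5 libraries, VHD4, VHD3, VHD5, LD7 and HD4, held 53.2%, and the first 4 of them are also the 4 with most CHAT. Both genes were well expressed in libraries with little CHAT. LD2 had 2.88 normalized reads of CHAT, 225 of ISL1 and 565 of ECEL1. LD6 had 8.11, 137 and 533 in the same order, and HD2 had 12.4, 159 and 597. The ratio of ISL1 to CHAT accordingly spanned 0.0984 in VHD3 to 16.9 in LD6, and that of ECEL1 1.35 to 65.7. By these values the list's name describes ISL1 less well than the other genes.

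**Figure D2:**
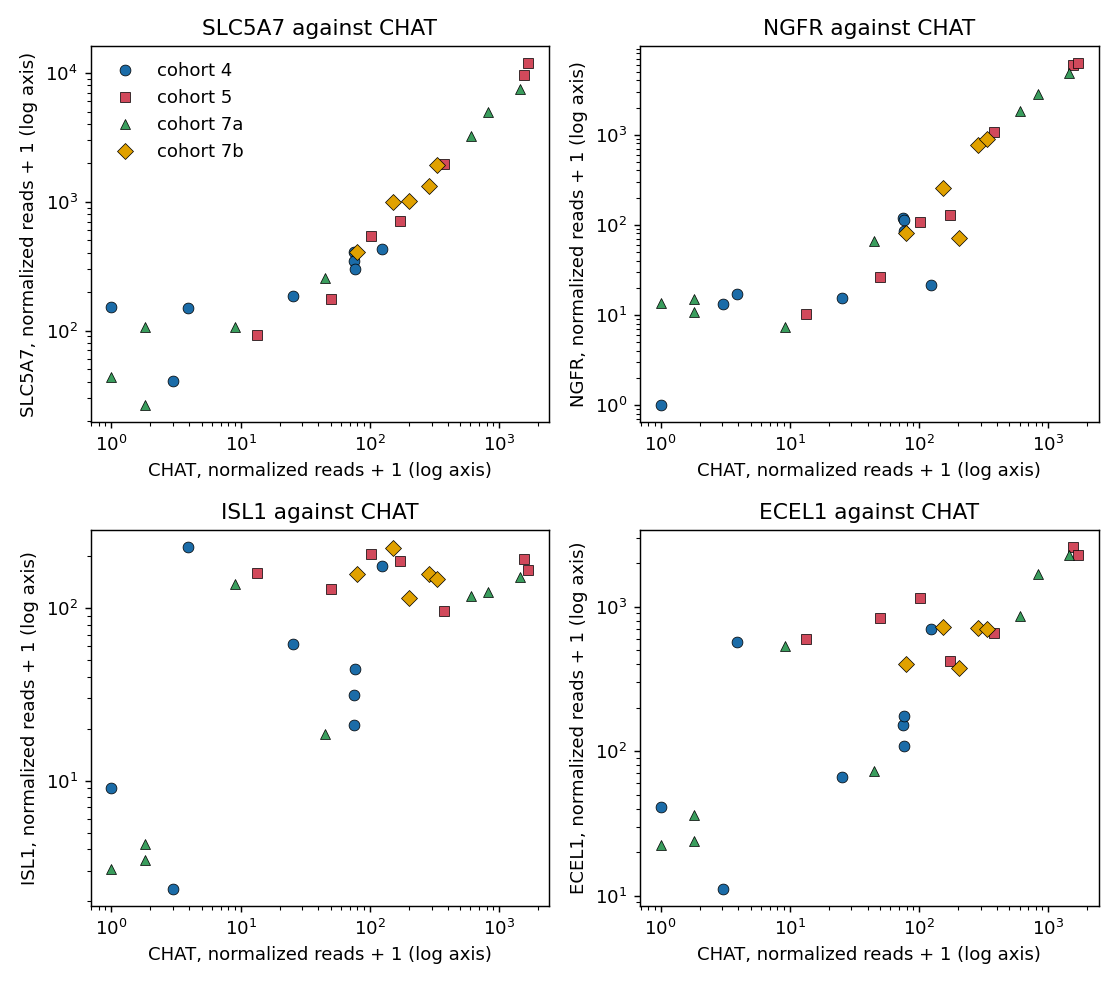
Each point is 1 library, with CHAT on the horizontal axis and SLC5A7, NGFR, ISL1 or ECEL1 on the vertical axis, all as normalized reads + 1 on log axes and coloured by cohort. SLC5A7 climbs along CHAT from HD2 (12.4 of CHAT) to VHD3 (1687), while ISL1 is 225 in LD2, a library with 2.88 of CHAT, and 166 in VHD3, with 1687.

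The mutual correlations are given as a description, since the genes were chosen from these libraries. For the 21 pairs among the 7 genes without ISL1 and ECEL1, Pearson r ran from 0.833 to 0.970 (median 0.932) and rho from 0.866 to 0.976. For the 7 pairs of ECEL1 with those genes, r ran from 0.701 to 0.875 and rho from 0.736 to 0.875. For the 7 pairs of ISL1 with them, r ran from 0.505 to 0.796 and rho from 0.414 to 0.605. ISL1 and ECEL1 correlated with each other at r = 0.915 and rho = 0.758. Within cohort 5, the 21 pairs had r from 0.957 to 0.997, those of ECEL1 0.700 to 0.848 and those of ISL1 0.0365 to 0.154. Within cohort 7a, the 21 pairs lay between 0.842 and 0.989. Within cohort 4, where CHAT did not exceed 123, they lay between 0.309 and 0.943. Every point shares its library's scaling and depth with all 9 genes.

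The spread of the members is wide for this table. The SD of log2(value + 1) over the 28 libraries was 3.34 for NGFR, 3.27 for CHAT and 2.65 for SLC18A3, and 1.57 for PRIMA1, the lowest of the 9. The median SD over the 13022 genes was 0.266 and the 95th percentile was 0.961. In 7 libraries, BD1, HD6, HD5, VHD6, BD2, HD1 and LD5, none of the 9 genes was above its own median over the 28. Of these 7, 4 came from cohort 7a and 3 from cohort 4. BD1 and HD1 are also among the 3 shallowest libraries, while in the other 5 libraries 3 reads equal 2.02 to 2.79 normalized reads.

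By category, CHAT was 177 ± 249 (SD, n = 10) among LD animals, 194 ± 258 (n = 5) among BD, 48.4 ± 57.5 (n = 7) among HD and 875 ± 771 (n = 6) among VHD. The LD libraries ran from 2.88 to 826 with a median of 77.2. The BD values were 0, 2.02, 75.0, 285 and 606. The HD libraries ran from 0 to 151 with a median of 24.4, and the VHD libraries from 0.823 to 1687 with a median of 913. All 4 categories overlap, since each holds a library under 3 normalized reads of CHAT. In VHD, 5 of 6 libraries were above the median over all 28, and in HD 2 of 7 were.

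NGFR likewise had its lowest median in HD and its highest in VHD. It was 416 ± 883 in LD (6.31 to 2816, median 75.4), 545 ± 785 in BD (0 to 1828, median 113), 62.2 ± 91.5 in HD (9.14 to 255, median 14.2) and 3031 ± 2945 in VHD (9.88 to 6237, median 2929). SLC5A7 was 995 ± 1504 among LD animals, 1018 ± 1339 among BD, 294 ± 356 among HD and 5302 ± 5034 among VHD. In each of these the SD is about as large as the mean or larger. ISL1 had medians of 130 (LD), 19.9 (BD), 128 (HD) and 158 (VHD), and ECEL1 had 467, 173, 597 and 1466. HD was thus the lowest category by median for CHAT, SLC5A7 and NGFR, while BD was the lowest for ISL1 and ECEL1.

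**Figure D3:**
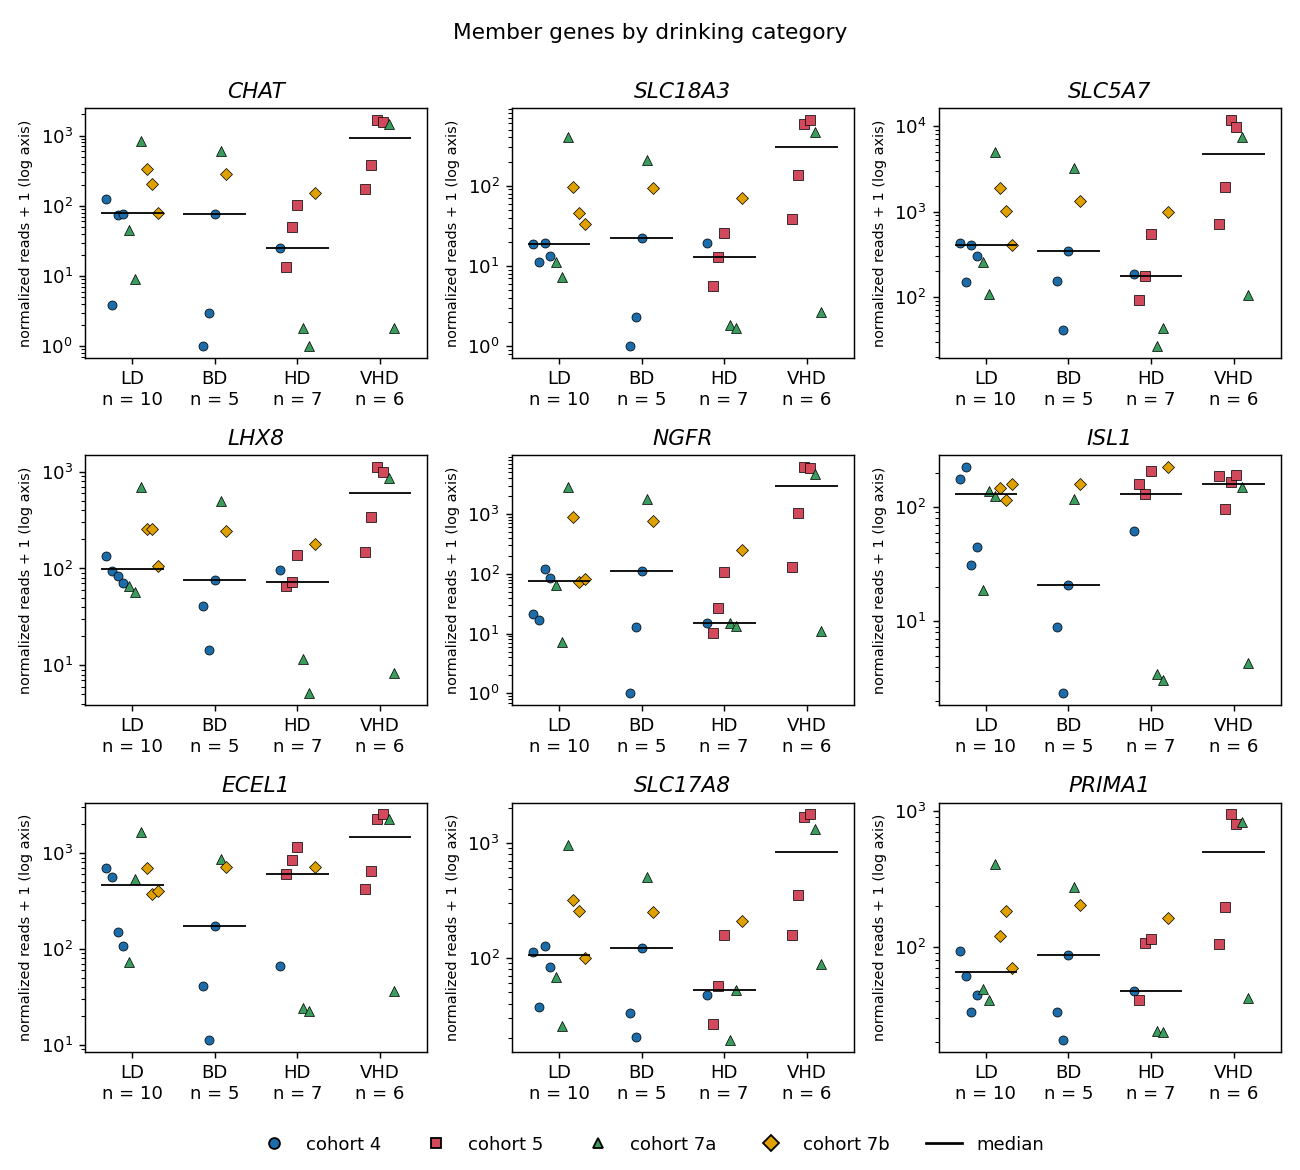
Each panel shows 1 of the 9 genes as normalized reads + 1 on a log axis, with 1 point per library by drinking category, marked by cohort, and a line at the category's median. For CHAT the VHD median is 913 and the HD median 24.4, and VHD6, of cohort 7a, lies at 0.823, below nearly all other libraries.

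The categories were compared in 1 model over all 28 libraries, with cohort as a term, fitted to the 13022 genes by limma on log2(value + 1). Benjamini-Hochberg adjustment ran over all genes, and a fold change on this scale understates the change of low genes. The categories VHD, HD and BD share the LD libraries as controls. No gene passed an adjusted p of 0.05 in any of these comparisons, so that percent called was 0 in each, and none of the 9 members passed. Unadjusted p-values under 0.05 numbered 1116 genes (8.57%) for VHD, 516 (3.96%) for HD and 458 (3.52%) for BD. edgeR also called 0 genes in each, and DESeq2 called 4 for VHD, 1 for HD and 0 for BD.

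Against LD, all 9 members had a fitted fold below 1 in HD, where 52.1% of all genes did. The median log2 fold change of the 9 was −2.15, beside −0.00758 over all genes. The fitted fold of CHAT in HD was 0.107 (95% interval 0.0127 to 0.899, adjusted p = 0.995 by limma). The fitted folds of LHX8, SLC5A7, ECEL1 and ISL1 were 0.226, 0.209, 0.225 and 0.264. These 5 genes had unadjusted p-values between 0.0288 and 0.047, where 2.56% of all genes were lower with an unadjusted p under 0.05. The 9 genes vary together and were listed with these libraries known, so their count is not independent evidence of a direction. Of the 7 HD libraries, 3 come from cohort 5, which has no LD animals. Without the cohort term the log2 fold change of CHAT in HD was −2.09, beside −3.23 with it. Among the cohorts that hold both categories, the HD difference was largest in cohort 7a. There the mean log2 value of CHAT was 5.69 lower in the 2 HD than in the 3 LD libraries, and all 9 members were lower. The single HD library of cohort 4 was lower than the LD libraries beside it for 7 members, by 0.68 for CHAT, and higher for SLC18A3 and LHX8. That of cohort 7b was higher for 7 members, with a difference of 0.69 for ISL1, and lower for CHAT, by 0.21, and LHX8.

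In VHD, 7 of 9 members had a fitted fold above 1, beside 52.5% of all genes, with a median log2 fold change of 1.16. CHAT had a fitted fold of 1.21 (95% interval 0.0919 to 16.1, adjusted p = 0.975 by limma) and NGFR one of 4.14 (0.297 to 57.8, adjusted p = 0.780). SLC17A8 had a fitted fold of 3.37 and the lowest adjusted p of the members, 0.638. ISL1 and ECEL1 were the 2 members below 1, at 0.344 and 0.498. The raw means of CHAT were 875 in VHD and 177 in LD, and 4 of the 6 VHD libraries come from a cohort without LD animals. Without the cohort term the log2 fold change of CHAT was 1.90 (adjusted p = 0.557, limma), beside 0.28 with it. In cohort 7a, where both categories occur, the 2 VHD libraries had 1450 and 0.823 normalized reads of CHAT and the 3 LD libraries 826, 43.7 and 8.11. The log2 fold change of CHAT with the cohort term moved from 0.28 to −1.60 without VHD5 and to 2.50 without VHD6. In BD, 3 members were above 1 and 6 below, with a median log2 fold change of −0.36 beside 54% of all genes below 1.

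**Figure D4:**
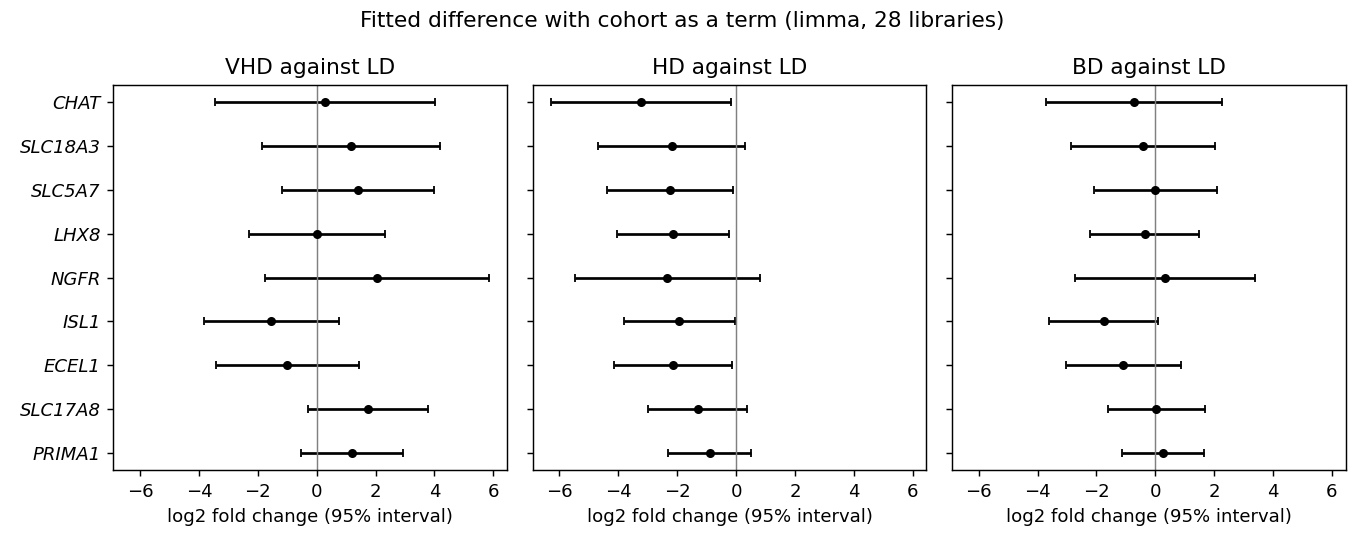
Points are fitted log2 fold changes of the 9 genes in VHD, HD and BD against LD, with bars for the 95% interval, from limma with cohort as a term over 28 libraries. In HD all points lie left of 0, and the intervals of NGFR, SLC18A3, SLC17A8 and PRIMA1 include 0. All intervals in VHD and BD include 0, that of CHAT in VHD reaching from −3.44 to 4.01. The intervals are not adjusted for the number of genes.

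In cohort 5, which has no LD library, the 4 VHD animals had 171, 376, 1687 and 1566 normalized reads of CHAT and the 3 HD animals 12.4, 48.6 and 101. The 2 categories do not overlap there for CHAT. Of the 9 members, 6 had every VHD library above every HD library, beside 7.03% of all tested genes. The exceptions were ISL1, ECEL1 and PRIMA1. This comparison was made after the values were seen, with no test. Between cohorts, with category as a term, no gene passed in limma (0 of 13022, with 1225 or 9.41% at an unadjusted p under 0.05) or edgeR, and DESeq2 called 19, none of them a member. ISL1 had the lowest p of the members (adjusted p = 0.394, limma), followed by ECEL1 (adjusted p = 0.409). ISL1 had medians of 36.8 in cohort 4, 166 in cohort 5, 66.9 in cohort 7a and 158 in cohort 7b.

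Some genes outside the members varied along with them, which by itself does not mark them as genes of cholinergic neurons. Likeness was measured as Spearman's rho, over the 28 libraries, with the mean centred log2 value of CHAT, SLC18A3 and SLC5A7, among 11249 genes with a mean of at least 50 normalized reads. Genes outside the members with a high rho included SLC10A4 (0.953), ZIC1 (0.941), GNRH1 (0.910), PLA2G7 (0.899), CD24 (0.893), ZIC4 (0.887), ADAMTS6 (0.870), SLITRK6 (0.863), DFNB31 (0.855) and SCGN (0.849). Of the members outside the score, LHX8, SLC17A8, NGFR and PRIMA1 ranked within the first 10, ECEL1 ranked 29 (0.823) and ISL1 ranked 895 (0.533). Only 38 genes, members included, had a rho over 0.8, and the median over all was 0.0558. CHAT, SLC18A3 and SLC5A7, which make up the score, are among the 38. Low values included those of GABRA2 (−0.878), SCN3B (−0.833), DLGAP1 (−0.833) and PEX5L (−0.828).

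Of 11 further genes listed for these neurons, all 11 were tested and none passed in VHD, HD or BD. Their fitted folds were above 1 for 8 in VHD (median log2 fold change 0.40), for 0 in HD (−0.70) and for 3 in BD (−0.03). GBX2 (0.915), NKX2-1 (0.903) and GBX1 (0.770) tracked the score, while GAL (0.481), CHRM2 (0.455) and TACR3 (0.424) did so least. ACHE, the enzyme that breaks acetylcholine down, ran from 410 to 3156 normalized reads with a rho of 0.835. The receptors that receive acetylcholine did not move with it as a group. The muscarinic receptor gene CHRM1 had a rho of −0.635, and CHRM3 and CHRM4 had −0.147 and −0.327. CHRM2 and CHRM5 went the other way, at 0.455 and 0.131. The nicotinic subunits CHRNA7 and CHRNB2 had −0.641 and −0.638, and CHRNA3 had 0.220. The median of 7 tested nicotinic subunits was −0.224. No member of these receptor lists passed in any comparison. Genes of motor and brainstem cholinergic neurons were nearly absent. HOXB5 and HOXC6 had 0 reads in every library, and the sum over the 7 such genes in the table stayed between 0 and 17.6.

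Markers of other cell types moved with CHAT. Over 28 animals, 8 relations of log2(CHAT + 1) were computed, 7 with a marker score, the mean centred log2 value of a list, and 1 with the number of reads. Two-sided permutation tests with 100000 resamples were adjusted by Benjamini-Hochberg over the 8. Values were shuffled over all 28 animals without regard to cohort. CHAT and the lists were chosen with earlier results on these libraries known, so the p-values of these 8 relations are not independent evidence. The score of 8 genes of cortical and basolateral glutamatergic neurons had r = −0.632 (permutation p = 0.00031, adjusted 0.00124) and rho = −0.654 (p = 0.00025, adjusted 0.001). Leaving out the 2 animals with the most extreme scores gave r = −0.646. Within cohorts 4, 5 and 7a, r was −0.255, −0.496 and −0.929. FEZF2, a cortical projection neuron factor, ran from 914 normalized reads in BD1 and 915 in HD5 down to 18.4 in VHD3 and 16.9 in VHD4. Of the 8 genes, 6 had a rho under −0.5 with the cholinergic score, and none was at 0 in all libraries of a category. Their summed level was 756 to 3038 for LD, 733 to 3702 for BD, 812 to 4132 for HD and 673 to 2735 for VHD. The part of these neurons in the CHAT values was not tested.

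The score of 10 astrocyte genes had r = 0.696 (permutation p = 3e-05, adjusted 0.00024) and rho = 0.692 (p = 0.00012, adjusted 0.00096), with r = 0.623 without the 2 farthest animals. Within cohorts 4, 5 and 7a, r was 0.247, 0.793 and 0.822. The 10 genes did not move as one, since GFAP had a rho of 0.707 with the cholinergic score and SLC1A2, the main glutamate transporter of astrocytes, one of −0.670. The summed level was 171009 to 218926 for LD, 172593 to 218992 for BD, 161166 to 229584 for HD and 181949 to 242534 for VHD. The myelin score had r = 0.480 (permutation p = 0.00996, adjusted 0.0266) and rho = 0.419 (p = 0.0274, adjusted 0.0730), and r was 0.335 without the 2 farthest animals. The score of GABAergic genes had r = 0.425 (permutation p = 0.0236, adjusted 0.0472) and rho = 0.372 (p = 0.0506, adjusted 0.0809), and −0.0871 within cohort 4. The striatal score missed the threshold at r = 0.398 (permutation p = 0.0351, adjusted 0.0562) and had the opposite sign, −0.513, within cohort 5. Pan-neuronal genes (r = −0.317), pallidal and thalamic genes (−0.0365) and reads per library (0.0825) missed it too. Within cohorts 4, 5 and 7a, r was −0.320, 0.531 and −0.567 for pan-neuronal genes. For pallidal and thalamic genes it was 0.204, 0.736 and −0.121. For reads per library it was 0.434, −0.635 and −0.745, and the pooled value was −0.315 without the 2 farthest animals. Cohort 7b, with 5 animals, was too small for a value of its own.

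For ISL1 and ECEL1, the same 8 measures were computed after their values were seen. They are therefore given as description, without p-values. ISL1 had r = 0.673 and rho = 0.700 with the striatal score. Without the 2 farthest animals r was 0.765, and within cohorts 4, 5 and 7a it was 0.783, 0.298 and 0.878. The difference between this r and the 0.398 of CHAT was not tested. With the glutamatergic score ISL1 had r = −0.750 and ECEL1 r = −0.798. The rho values were −0.744 and −0.789. Within cohorts 4, 5 and 7a, r of ECEL1 with that score was −0.884, −0.770 and −0.982. Without the 2 farthest animals r was −0.748 for ISL1 and −0.807 for ECEL1.

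**Figure D5:**
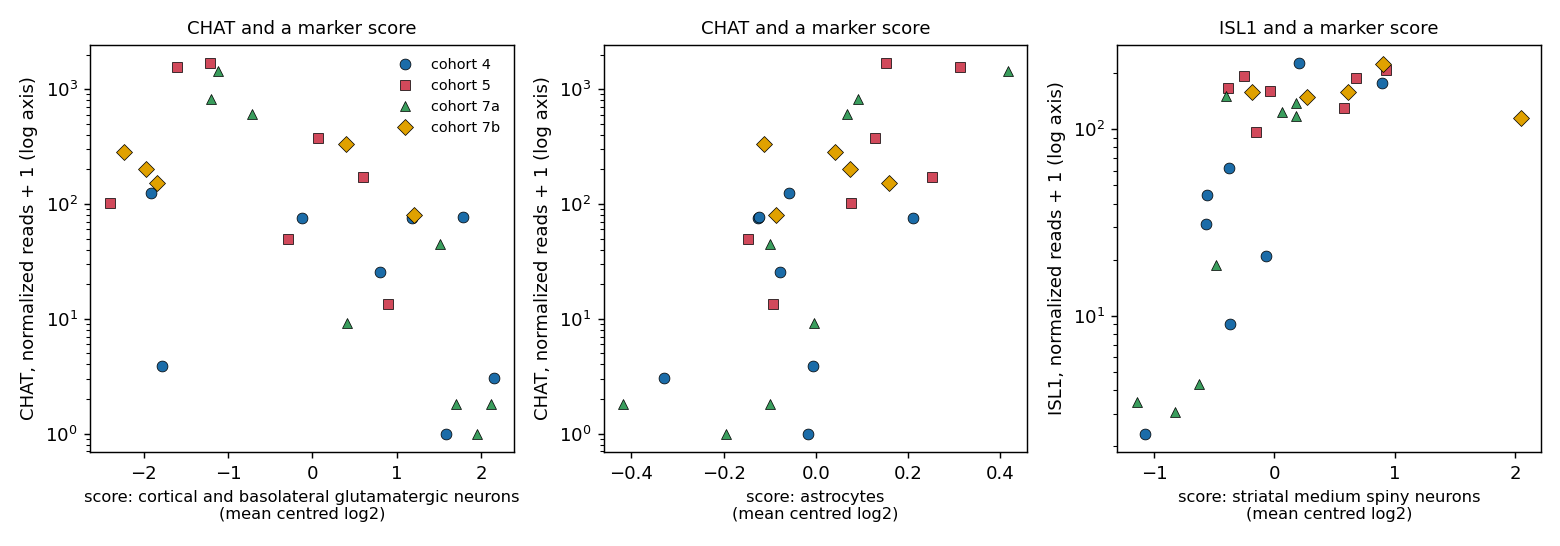
Each point is 1 library, marked by cohort. The left and middle panels plot CHAT, and the right panel ISL1, as normalized reads + 1 on a log axis, against the score of glutamatergic, astrocyte or striatal marker genes (mean centred log2). CHAT falls along the glutamatergic score (r = −0.632) and climbs along the astrocyte score (r = 0.696), and ISL1 climbs along the striatal score (r = 0.673).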

How the data were processed

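Ribosomal RNA-depleted, stranded total RNA libraries of 28 animals were used. CASAVA, FastQC, STAR 2.3.0e and edgeR are named, per the submitters' processing notes. For each gene, the deposited signal is its exon reads times an upper-quartile factor particular to the library. Exons carry a deposited score, the same quantity rounded to whole numbers. The genome build is not given in the sources used here. Each table has 30 columns, of which 2 were not used. All gene values came out as whole reads to within 0.02, and those whole reads gave the depth (1910514 to 25928489 reads, 3 reads being 1.82 to 24.1 normalized reads).

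Genes with 10 or more normalized reads in 5 or more libraries were tested on log2(value + 1) in limma 3.58.1 (R 4.3.3, mean-variance trend, category and cohort as terms), adjusted by Benjamini-Hochberg at 0.05, two-sided. The recovered reads were also given to the quasi-likelihood test of edgeR 4.0.16 and to DESeq2 1.42.0, and the code was tested on simulated data. Correlations used Python 3.11.15 and scipy 1.17.1. Alternatives were pseudocounts of 0.5 and 8, no filter or a filter of 50, TMM scaling, no cohort or category term, and left-out libraries. The genes and all lists were chosen with earlier results of these data known. Named besides the members were the 12 genes most and the 5 least like the mean of CHAT, SLC18A3 and SLC5A7, and up to 3 extremes of each list, some of which are not reported here. The labels give 1 animal per library, and intervals are at 95%.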

Additional observations from a re-analysis of the deposited data

Results flagged for a closer look

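In LD, 1 library, LD7 of cohort 7a, stood apart from the other 9 for 8 of the 9 genes, by a gap to the next library that is large against the range of the group. Its values, with the next highest LD library after each, were 826 normalized reads for CHAT (333), 410 for SLC18A3 (95.4), 4991 for SLC5A7 (1912), 691 for LHX8 (258), 2816 for NGFR (886), 1679 for ECEL1 (699), 962 for SLC17A8 (319) and 407 for PRIMA1 (183). ISL1 was the exception, at 123 in LD7. In HD, the library HD7 of cohort 7b stood apart for SLC18A3, at 68.5 beside 24.7 in the next library, and for NGFR, at 255 beside 105. These are 10 of 36 groups of values examined on the scale of normalized reads. The rate of about 1 in 20 groups that chance gives holds for normally distributed values, which these are not, and the 9 genes are not independent of each other. On log2(value + 1), the gaps of these 10 were 0.169 to 0.394 of the range of the group, and none of the 10 was past the critical value. Over all groups, 2 low ends were past it on that scale. Both were VHD6 in VHD, for CHAT (gap 0.666 of the range) and for ISL1 (0.817).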

How the results depend on the processing

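No member passed the adjusted threshold in VHD, HD or BD against LD or between cohorts under the alternatives run. Counts over all genes stayed at 0 except with DESeq2 (4 for VHD, 1 for HD, 19 for cohorts) and when single libraries were left out, with 0 to 1 for VHD (1 without VHD6), 0 to 1 for HD (1 without HD5), 0 to 40 for cohorts (40 without LD2) and 0 for BD. All 9 HD folds stayed below 1 in every alternative run. Directions of several VHD and BD folds (log2) turned. Without the 3 shallowest libraries they were −0.19 for CHAT and −0.54 for LHX8 in VHD, and 0.67 for CHAT, 0.54 for SLC18A3, 0.37 for SLC5A7 and 0.0181 for LHX8 in BD. With edgeR, ECEL1 in VHD was 0.074, and CHAT, SLC18A3 and SLC5A7 in BD were 0.16, 0.19 and 0.053. Without the cohort term, ECEL1 in VHD was 0.96, and NGFR and SLC17A8 in BD were −0.25 and −0.24. A pseudocount of 0.5 gave −0.0235 for LHX8 in VHD, and one of 8 gave 0.16 for SLC18A3 and 0.0273 for SLC5A7 in BD. TMM scaling gave −0.00337 for LHX8 in VHD and 0.00131 for SLC5A7 in BD, and DESeq2 −0.10 for SLC17A8 in BD. With 1 library left out, VHD ranges that span 0 were −1.60 to 2.50 (CHAT), −0.14 to 3.04 (SLC18A3), −1.29 to 1.55 (LHX8) and −2.53 to 0.0063 (ECEL1), lowest without VHD5 and highest without VHD6. BD ranges, lowest without BD4 and highest without BD1 or BD2, were −2.21 to 0.27 (CHAT), −1.66 to 0.34 (SLC18A3), −1.03 to 0.62 (SLC5A7), −1.29 to 0.16 (LHX8), −0.97 to 1.52 (NGFR), −0.67 to 0.45 (SLC17A8) and −0.26 to 0.60 (PRIMA1). The relations of CHAT were rerun for Pearson r only, with a pseudocount of 8, with TMM scaling and without the 3 shallowest libraries. Those to the glutamatergic, astrocyte and myelin scores stayed past the threshold in these settings. By rho, the myelin and GABAergic relations missed it in the main setting (adjusted permutation p = 0.0730 and 0.0809). Single libraries were not left out for these relations. CHAT against the GABAergic score had r = 0.412 with TMM scaling (adjusted permutation p = 0.0602), past the threshold otherwise, and against reads per library r = −0.419 without the 3 shallowest libraries. The cause of these changes was not tested. In BD1, 3 reads equal 24.1 normalized reads, so low members there are not resolved. No paired analysis was possible because the labels give no replicate numbers that tie animals of different categories.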

Other observations

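The blocks also differed in genes of hypothalamic hormones. VHD5, one of the 3 libraries richest in CHAT, had 21751 normalized reads of AVP and 4478 of OXT, the genes of the hypothalamic hormones vasopressin and oxytocin, where no other library exceeded 69.6 of AVP or 99.7 of OXT. VHD3 and VHD4, with as much CHAT, had 9.22 and 4.97 of AVP, and 7.91 and 19.9 of OXT beside a median of 1.42 over the 28. Some other genes of the hypothalamic list were not confined to VHD5. Of the 7 tested genes of that list, 3 had a rho over 0.5 with the cholinergic score, and the median was 0.481. SIM1, AVP and POMC had the lowest values, at 0.152, 0.199 and 0.255. PMCH, the gene of melanin-concentrating hormone, had a rho of 0.846 with the cholinergic score at low values (0 to 50.3). HDC, the enzyme that makes histamine, had a rho of 0.517 and lay between 91.3 and 249 in the 5 libraries with most CHAT, beside a median of 22.1 over the 28. OTP had a rho of 0.481 and lay between 16.9 and 190 there, beside a median of 5.08. GFAP, an astrocyte filament gene, was also highest in VHD5, at 99937 normalized reads, and lowest in BD2, at 14636. GNRH1, the gene of gonadotropin-releasing hormone, was 364 in LD7, 361 in VHD3, 302 in VHD4 and 282 in VHD5, and 6.59 in VHD6.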
